A study of Mus musculus with 2 samples.

Results

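In the liver of a mouse given the Ter119 antibody, 370 Kupffer cells carried transcripts of Timd4, C6 and Cd163, genes of long-resident Kupffer cells. They were 9.68% (exact Clopper-Pearson 95% interval 8.76 to 10.7) of 3822 Kupffer cells of that mouse, 370 of 13846 Ter119 cells that passed the depth filters, and 370 of 25418 such cells in both libraries. Kupffer cells were gated by counts of unique molecular identifiers (UMIs): Cd5l, Marco, Slc40a1, Clec4f and Vsig4 had to make up at least 1% of a cell's UMIs outside hemoglobin, S100a8 and S100a9 together under 1%, Kdr, Ptprb and Clec4g at most 1 UMI, and 4 hemoglobin genes under 5%. A gated cell was called marker-bearing with at least 2 UMIs of Timd4, C6 and Cd163 in sum, and marker-free with 0, which held for 2935 cells, or 76.8%. The remaining 517 cells, with 1 such UMI, lie between both groups. The cells were thus chosen by their own counts, and every difference between both groups of cells given here describes that choice in 1 library, without a test. Whether these cells kept the transcripts through treatment or gained them anew was not tested.

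Kupffer cells are the macrophages that line the sinusoids of the liver, where they take up aged red cells, bacteria and lipoproteins from the blood. In mice, Timd4 marks cells of long residence, most of embryonic origin, whereas macrophages that arise from blood monocytes and refill the niche take on Clec4f first and Timd4 late. After heavy uptake of red cells, macrophages meet a load of heme and iron, which they handle through the heme oxygenase Hmox1, the ferritin subunits Fth1 and Ftl1 and the iron exporter ferroportin, encoded by Slc40a1.

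The study compared liver macrophages of 2 C57BL/6J mice, 7 to 10 weeks old, with 1 droplet-based library for each. One mouse received Ter119, an antibody to an antigen on erythroid cells, as 35 ug under the skin and then 10 ug on 10 days, and the other received saline of like volume. Cells of digested livers were enriched on beads against F4/80, the product of Adgre1, and CD11b, and both mice were hashtagged and pooled before capture. Effects of the antibody, of the animal and of the library cannot be told apart. The labels give the time of death as 24 after the last injection, without a unit.

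The deposited Ter119 matrix held 25760 barcodes and 61892074 UMIs and the saline matrix 18354 barcodes and 97181787 UMIs. Marker-bearing cells had a median of 3870.5 UMIs, marker-free cells 3420, and the 8177 gated saline cells 6622. Levels were therefore compared after each cell was thinned to 1000 UMIs, and are given as CPM, a gene's UMIs per 1000000 summed UMIs, with exact 95% intervals that cover counting error only. The median mitochondrial share was 6.43% in marker-bearing and 5.64% in marker-free cells, and the thinned cells held a median of 620 and 618 genes. The matrices shared 133 barcodes, 2 of them in marker-bearing and 14 in marker-free cells. Transcripts of the Y-linked Ddx3y, Uty, Eif2s3y and Kdm5d came to at most 6 UMIs in either library, so that these genes do not separate the mice.

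Timd4 encodes a receptor for phosphatidylserine on dying cells, C6 a component of the terminal complement complex, and Cd163 the receptor for haptoglobin-bound hemoglobin. C6 was the most frequent of these 3 transcripts in the marker-bearing cells, with a UMI in 298 of 370 cells (80.5%), against 175 (47.3%) for Timd4 and 161 (43.5%) for Cd163. Most cells were near the threshold: 162 had a sum of 2, 95 a sum of 3, 47 a sum of 4 and the other 66 between 5 and 15 UMIs. C6 was the only marker seen in 117 cells, Timd4 in 24 and Cd163 in 21, whereas 56 cells held all 3 and 208 held at least 2 of them. The genes lie on 3 chromosomes of GRCm38, Timd4 at chr11:46810800-46844332, C6 at chr15:4727175-4814967 and Cd163 at chr6:124304656-124330527.

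In saline, almost every gated Kupffer cell met the same rule, 7771 of 8177 or 95.03% (94.5 to 95.5). The gap between the libraries was still there at 1 depth. After thinning to 1000 UMIs, 2.49% of gated Ter119 cells (2.02 to 3.03) and 66.1% of gated saline cells (65.1 to 67.2) had a sum of at least 2, and after thinning to 2000 UMIs, with shallower cells left out, the shares were 6.00% of 2952 and 93.0% of 6985 cells. Marker-bearing cells had lower levels of the markers than gated saline cells, with 265 against 556 CPM of Timd4, 503 against 1016 of C6 and 235 against 833 of Cd163. These 3 levels in marker-bearing cells were raised by the selection on the same UMIs.

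Barcodes of cell types that lack these genes show what free RNA in the droplets gives. A sum of at least 2 was reached by 0.569% of 703 neutrophil barcodes (median 2069 UMIs), by 0.760% of 1316 endothelial barcodes (median 1523 UMIs) and by 0 of 105 lymphoid barcodes, which allows a share of up to 2.86% when set at 3 counts of the total (exact upper bound 3.45%). At 1000 UMIs, at least 1 marker UMI was present in 10.7% of gated Ter119 cells, against 3.27% of neutrophil, 3.04% of endothelial and 3.81% of lymphoid barcodes. Lymphoid barcodes were taken only where Clec4f and Vsig4 had no UMI, and endothelial barcodes only where the Kupffer genes of the gate made up under 1%, so that both shares can lie below what free RNA gives. The neutrophil barcodes had no such limit on Kupffer genes, and the share in Kupffer cells was above theirs, although part of the 1-UMI cells lies within what free RNA gives. Unlike the gated cells, none of these outside barcodes was limited in hemoglobin, whose UMIs count in their totals. Their shares and CPM, here and below, can therefore lie below what free RNA gives in gated cells.

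When 2 of the markers chose the cells, the marker left out followed them. Timd4 was at 13.8 CPM (9.97 to 18.7) in cells without a UMI of C6 or Cd163, at 55.4 (36.5 to 80.7) in cells with 1 such UMI, and at 191 (144 to 247) in cells with 2 or more. C6 stood at 52.7, 160 and 305 CPM along the sum of Timd4 and Cd163, and Cd163 at 20.9, 69.4 and 156 CPM along the sum of Timd4 and C6. The intervals of the lowest and highest class did not overlap for any of the 3 genes. For comparison, the neutrophil and endothelial barcodes held 3.26 and 6.85 CPM of Timd4, 11.9 and 16.7 of C6, and 9.23 and 9.13 of Cd163. The 105 lymphoid barcodes held 21.2 CPM of Cd163 (6.88 to 49.5, from 5 UMIs), as much as the lowest of the 3 classes of Kupffer cells.

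**Figure D1:**
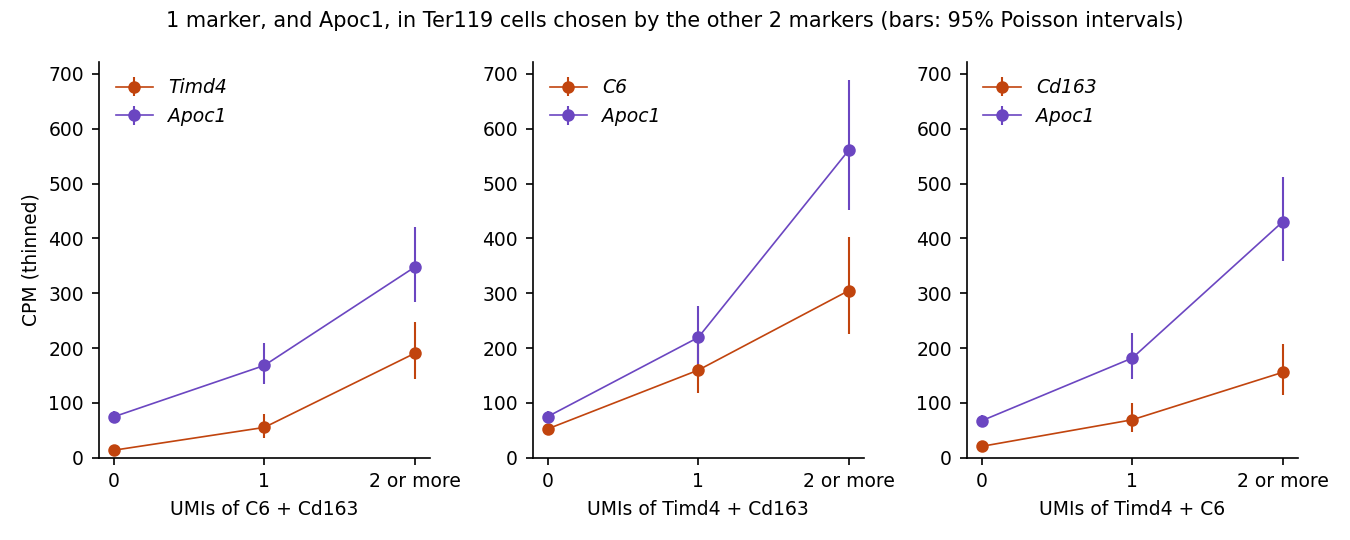
Level of 1 marker (orange) and of Apoc1 (purple) in gated Ter119 cells, in CPM after thinning, by the UMIs of the other 2 markers, with 95% Poisson intervals. All 3 markers stand higher where the other 2 are present, from 13.8 to 191 CPM for Timd4, and Apoc1 stands higher with them in each panel.

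Outside the genes of the rule, 1 gene stood apart. Apoc1, which encodes a small apolipoprotein of hepatocytes and macrophages, was at 389 CPM (328 to 458) in marker-bearing cells and at 66.1 CPM (57.1 to 76.1) in marker-free cells, a ratio of 5.89 (4.71 to 7.34). When each cell's UMIs were split at random, cells were chosen on 1 part by at least 1 marker UMI and Apoc1 was read on the other, the ratio was 3.71 (3.18 to 4.33). Apoc1 was the only one of 773 genes with at least 200 CPM in either group that stood at least 2-fold higher, which is 0.129% of them, and none (0%) stood 2-fold lower. Without thinning, Apoc1 was counted 583 times in marker-bearing and 587 times in the far more numerous marker-free cells. A UMI of it was found in 193 of 370 (52.2%) against 432 of 2935 cells (14.7%). The gene lies at chr7:19689481-19692660 of GRCm38.

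In marker-free cells Apoc1 was at 58.0 CPM (53.4 to 62.8) over all UMIs. Neutrophil barcodes held 32.6 CPM of Apoc1 (24.8 to 41.9), lymphoid barcodes 21.2 (6.88 to 49.5) and endothelial barcodes 66.6 (57.1 to 77.2). Of these, which had no hemoglobin limit, only endothelial barcodes reached the Apoc1 level of marker-free cells. Gated saline cells held 3014 CPM of it, so that marker-bearing cells were at 12.9% and marker-free cells at 2.19% of the saline level. Apoe, a related apolipoprotein gene of the same cluster on that chromosome, stood at 5643 and 5897 CPM in both groups, a ratio of 0.957 (0.914 to 1.00), and at 10136 CPM in saline. The difference was therefore not shared by both apolipoprotein genes. In cells chosen by the sum of Timd4 and Cd163 alone, Apoc1 was at 75.2, 219 and 561 CPM for sums of 0, 1 and at least 2.

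**Figure D2:**
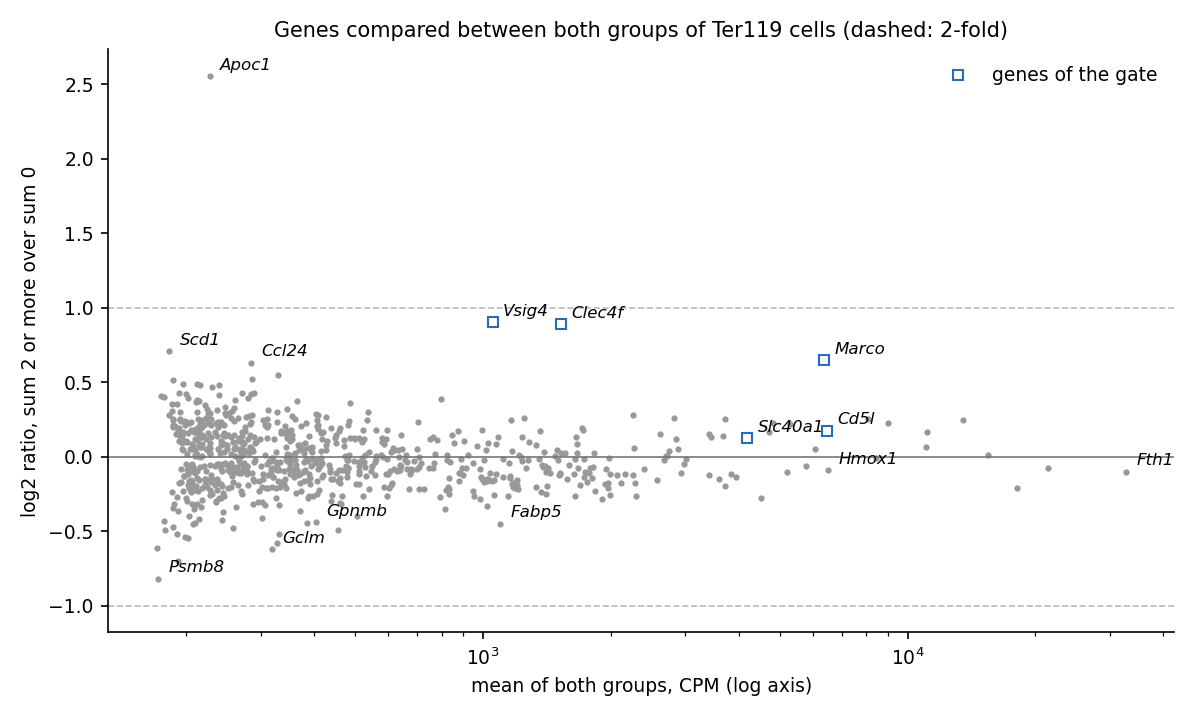
Log2 ratio of marker-bearing over marker-free Ter119 cells against the mean level of each gene in CPM, on a log axis. Apoc1, at 2.56, is the only point beyond the dashed lines at 2-fold, while genes of the gate (squares) lie between 0.13 and 0.90.

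The rest of the transcriptome was close in both groups. The median log2 ratio of the 773 genes was -0.03, and 95% of them lay between -0.42 and 0.39. After Apoc1, the highest ratios were those of Scd1, the stearoyl-CoA desaturase, at 1.64 (1.28 to 2.08), and of Ccl24, a chemokine that Kupffer cells express, at 1.55 (1.27 to 1.88). Scd1 stood at 227 against 139 CPM and Ccl24 at 346 against 223 CPM, and both were near their saline levels of 216 and 391 CPM. The lowest ratio was that of Psmb8, an immunoproteasome subunit, with 124 against 219 CPM, a ratio of 0.567 (0.411 to 0.766), which was 0.730 over all UMIs. Scd1 reached 200 CPM only in marker-bearing cells and Psmb8 only in marker-free cells, so the level itself has a part in both ranks.

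Kupffer identity genes that served in the gate stood higher in marker-bearing cells. Vsig4, the complement receptor CRIg, was at 1376 CPM (1259 to 1501) against 735 (704 to 767), a ratio of 1.87. Clec4f, a Kupffer-specific lectin, was at 1989 CPM (1848 to 2138) against 1071 (1034 to 1109), a ratio of 1.86. In gated saline cells these genes reached 3165 and 5130 CPM, so that marker-bearing cells held 43.5% and 38.8% of the saline level and marker-free cells 23.2% and 20.9%. Cd5l, a secreted protein of tissue macrophages, and Slc40a1 were closer, at ratios of 1.13 (1.08 to 1.18) and 1.09 (1.04 to 1.15). All 5 genes helped to gate both groups, and their free RNA was not negligible: neutrophil and endothelial barcodes held 154 and 143 CPM of Vsig4 and 259 and 232 CPM of Clec4f.

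Marco, a scavenger receptor for bacteria and particles, went the other way from saline. It was at 7759 CPM (7478 to 8049) in marker-bearing and 4948 CPM (4867 to 5029) in marker-free cells, a ratio of 1.57 (1.51 to 1.63), while gated saline cells held 807 CPM. In these levels, the cells with the resident markers were farther from saline in Marco than the cells without them, and nearer to it in Vsig4, Clec4f and Apoc1. Marco, Vsig4 and Clec4f are genes of the gate, which has a part in their levels. The gate sum had a median of 2.18% in marker-bearing and 1.58% in marker-free cells, the latter nearer the 1% limit. Neutrophil and endothelial barcodes held 1138 and 999 CPM of Marco.

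Folr2, a folate receptor of resident macrophages that the rule did not use, was at 268 CPM (217 to 326) against 194 (178 to 210), a ratio of 1.38 (1.11 to 1.71), and at 1128 CPM in saline. With cells limited to 5% mitochondrial UMIs its ratio was 0.891. Of 24 Kupffer surface and secreted genes, 14 outside the rule reached 200 CPM, and 13 of these had a ratio above 1, with a median log2 ratio of 0.22 against -0.03 for all genes compared. Folr2, Slc16a9 and Gfra2 reached that level only in the marker-bearing cells, where they were higher, so the level itself has a part in this count. With 200 CPM asked of the mean of both groups, a choice made after the data were seen, 11 of 12 were above 1 with a median of 0.19, against 314 of all 718 genes. None of the 14 was 2-fold apart. Adgre1 was at 903 against 690 CPM, Csf1r, the receptor for the macrophage growth factor CSF-1, at 1362 against 1138, and Hpgd, which degrades prostaglandins, at 762 against 648. The transporter Slc16a9 and the receptor Gfra2 had ratios of 1.40 and 1.34, while Clec1b, the podoplanin receptor CLEC-2, was at 478 against 485 CPM. Cxcl13, a chemokine at 326 CPM in saline, had 0 thinned UMIs in marker-bearing cells.

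**Figure D3:**
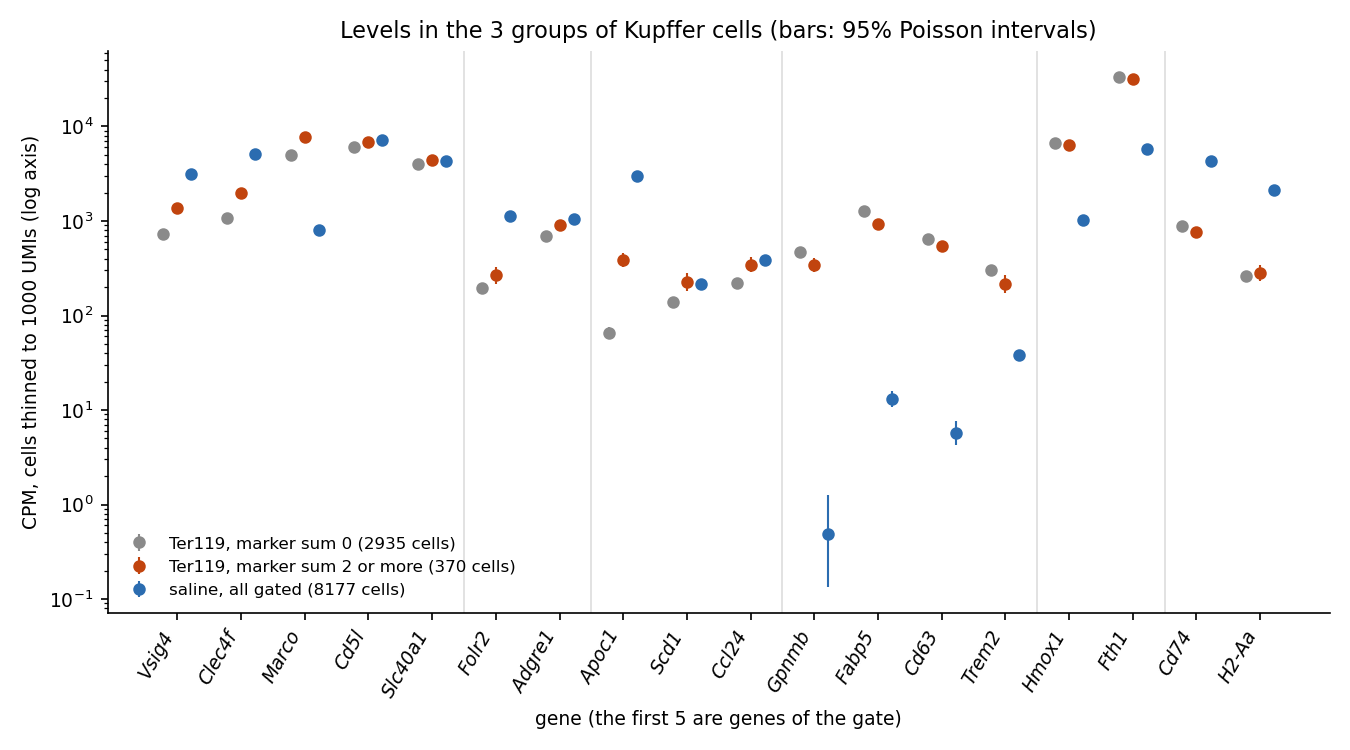
Levels in CPM on a log axis of 18 genes in marker-free (grey) and marker-bearing (orange) Ter119 cells and in gated saline cells (blue), with 95% Poisson intervals. Marker-bearing cells lie between the other groups in Vsig4, Clec4f, Folr2 and Apoc1, above both in Marco, and beside the marker-free cells in Hmox1, Fth1, Cd74 and H2-Aa.

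The differences were larger at higher marker sums and did not begin at the threshold. Apoc1 stood at 66.1, 145, 198, 463, 426 and 727 CPM for marker sums of 0, 1, 2, 3, 4 and at least 5. Vsig4 went from 735 through 849, 1117, 1379 and 1511 to 1909 CPM along these classes, and Clec4f from 1071 to 2364. Marco reached 9424 CPM in the cells with at least 5 marker UMIs. At the threshold itself, cells with a sum of 1 and of 2 held 849 and 1117 CPM of Vsig4, 1259 and 1858 of Clec4f, 5698 and 6784 of Marco, and 259 and 216 of Folr2. Even in the class with most marker UMIs, Apoc1 was far below its saline level.

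**Figure D4:**
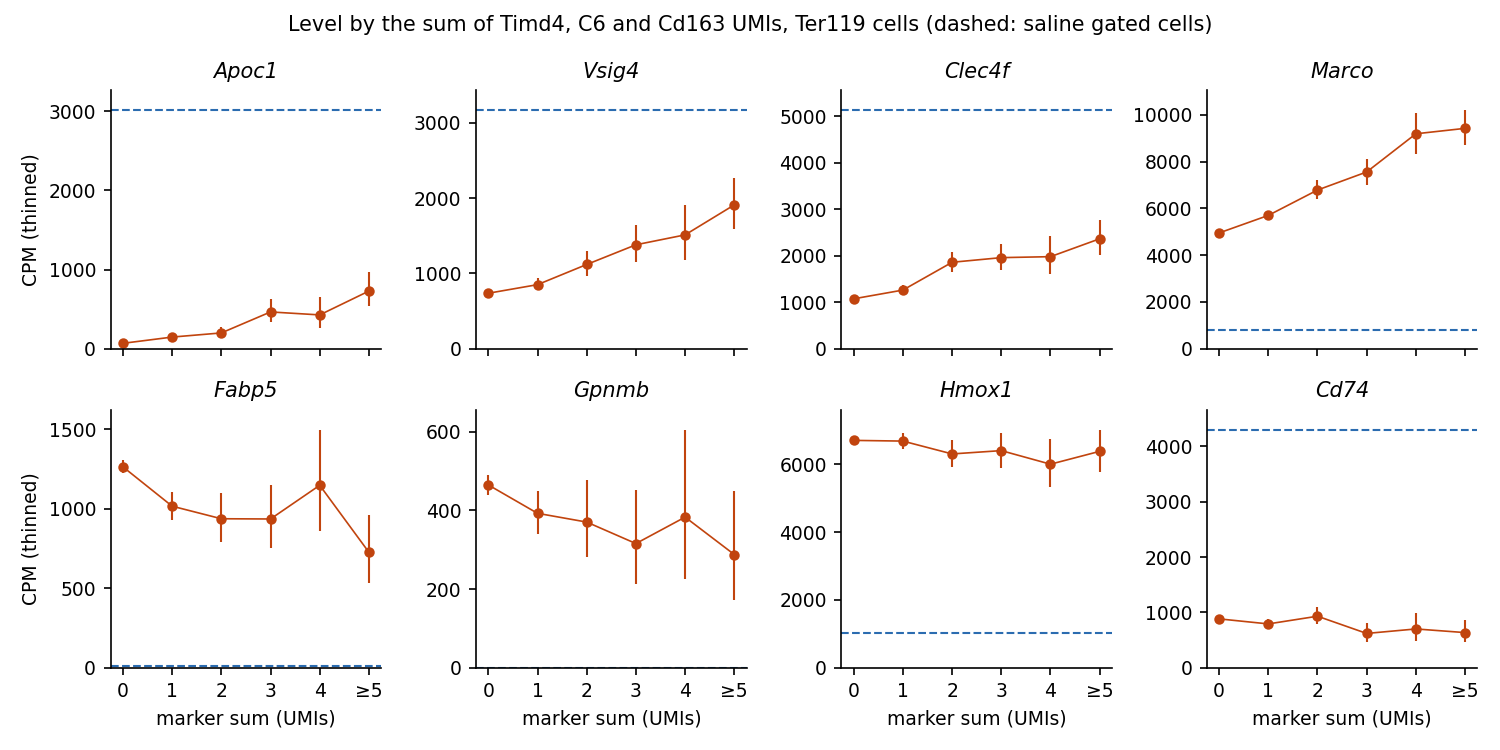
Level in CPM of 8 genes by the sum of Timd4, C6 and Cd163 UMIs in gated Ter119 cells, with 95% Poisson intervals, and the level in gated saline cells (dashed). Apoc1, Vsig4, Clec4f and Marco stand higher at higher sums, whereas Hmox1 stays between 6000 and 6702 CPM.

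Genes that separate the Ter119 from the saline Kupffer cells were expressed in the marker-bearing cells too. A list of 10 such genes, which was itself chosen on these libraries, summed to 2449 CPM in marker-bearing, 3314 CPM in marker-free and 30.5 CPM in gated saline cells. At 1000 UMIs, 321 of 370 marker-bearing cells (86.8%, 82.9 to 90.04) held a UMI of the list, fewer than the 92.8% (91.8 to 93.7) of marker-free cells and far more than the 2.79% of gated saline cells. The 4 of its genes that reached 200 CPM all had ratios below 1, with a median log2 ratio of -0.44. Fabp5, a fatty acid binding protein, was at 927 CPM (832 to 1031) against 1265 (1224 to 1306), and Gpnmb, a glycoprotein of lipid-laden macrophages, at 343 (286 to 408) against 465 (440 to 490). Lgals1, which encodes galectin-1, was at 378 against 532 CPM, and the tetraspanin Cd63 at 541 against 650. Saline cells held 13.1, 0.489, 6.36 and 5.75 CPM of these genes, so that both groups of Ter119 cells were far above saline in each.

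Hmox1, Fth1, Ftl1 and Spic of heme and iron handling stood above saline in both groups of Ter119 cells. Hmox1 was at 6303 CPM (6049 to 6564) in marker-bearing and 6702 (6608 to 6796) in marker-free cells, against 1023 in saline, and its ratio of 0.940 became 1.11 with at most 5% mitochondrial UMIs. Fth1 was at 31530 against 33753 CPM, with 5724 in saline, and Ftl1 at 16768 against 19340, with 6936 in saline. Spic, a transcription factor that heme induces in macrophages, was at 492 against 502 CPM, and at 138 in saline. Of the 10 heme and iron genes compared, 4 were above and 6 below a ratio of 1, with a median log2 ratio of -0.08. Among all 718 genes with 200 CPM on the mean of both groups, 314 were above 1. The biliverdin reductases Blvra and Blvrb had ratios of 0.785 and 0.861, and the metal transporter Slc11a1 of 1.16. Over all UMIs, Blvra was at 0.992 (0.883 to 1.11) and Blvrb at 0.891. Slc11a1 and Slc40a1 were near saline in both groups, at 246 and 212 CPM against 225 for Slc11a1 and at 4376 and 4003 CPM against 4344 for Slc40a1.

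Antigen presentation genes as a set did not stand higher with the resident markers. The invariant chain Cd74 was at 770 CPM (683 to 865) against 884 (851 to 919), and the class II chain H2-Aa at 281 (230 to 341) against 263 (245 to 282), where gated saline cells held 4301 and 2153 CPM. Marker-bearing cells were thus at 17.9% and 13.1% of the saline level, and marker-free cells at 20.6% and 12.2%. Along marker sums of 0, 1, 2, 3, 4 and at least 5, Cd74 was at 884, 793, 932, 621, 702 and 636 CPM. H2-Aa stayed between 242 and 309 CPM along these classes. Over all UMIs at 50 CPM, 6 class II genes had a median log2 ratio of -0.03. The 3 class II genes compared after thinning, H2-Ab1 with a ratio of 0.875 among them, had one of -0.19. The 6 class I genes had one of -0.02, with B2m, the class I light chain, at a ratio of 0.985, the nonclassical H2-T23 at 1.10, the peptide loading factor Tapbp at 1.03 and Psmb8 as the lowest.

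Genes of sterol handling under the nuclear receptor LXR had a median log2 ratio of 0.39, with 6 of 7 above a ratio of 1. Apoc1 and Scd1 reached 200 CPM only in the marker-bearing cells, where they were higher, and with 200 CPM asked of the mean of both groups 5 of 6 were above 1, with the same rounded median of 0.39. Among all 718 genes at that mean level, 314 were above 1 and 404 below. Over all UMIs at 50 CPM the median of the LXR list was 0.16, with 7 of 10 above 1. It was 0.17 for the Kupffer surface and secreted genes and -0.01 for all 3059 genes. Apart from Apoc1 and Scd1, the phospholipid transfer protein Pltp was at 273 against 205 CPM, the cholesterol exporter Abca1 at 414 against 319 and Abcg1 at 319 against 243. Pltp stood at 629 CPM in saline, whereas Abcg1, at 305 CPM there, was at its saline level in the marker-bearing cells. Lipid-associated macrophage genes had 7 of 9 below 1 and a median of -0.18, among them Trem2, a lipid-sensing receptor, at 216 against 301 CPM. Targets of the oxidative stress factor NRF2 had 6 of 7 below 1 and a median of -0.20: the glutathione synthesis subunit Gclm was at 251 against 386 CPM and the glutathione transferase Gstm1 at 262 against 392, while Txnrd1, thioredoxin reductase, had a ratio of 1.21 and its substrate Txn1 one of 0.838. Over all UMIs at 50 CPM, NRF2 targets had 6 of 9 below 1 and a median of -0.07, and lipid-associated genes 11 of 13 and -0.29. These directions are not independent of the ratios of single genes named before, since Gpnmb, Cd63 and Fabp5 are on 2 lists.

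**Figure D5:**
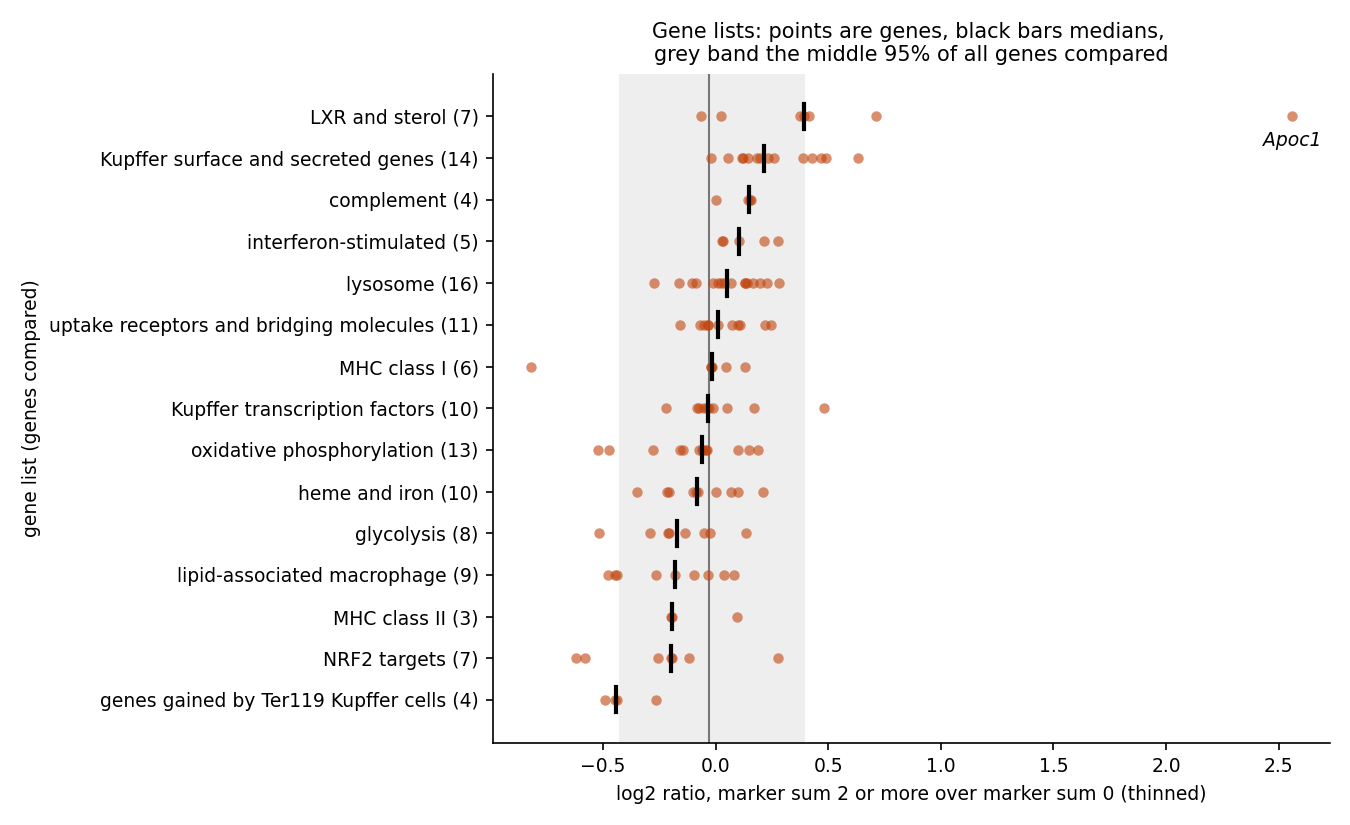
Log2 ratios of marker-bearing over marker-free Ter119 cells for the genes of 15 lists with at least 200 CPM (points), with the median of each list (black bars), the median of all 773 genes (line) and their middle 95% (grey band). The lists run from a median of -0.44 for genes gained by Ter119 Kupffer cells to 0.39 for LXR and sterol genes, where Apoc1 lies far to the right.

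The medians of the other lists with at least 3 genes compared lay between -0.17 and 0.15. Of all 718 genes with 200 CPM on the mean of both groups, 314 had a ratio above 1. Complement genes outside the rule had 4 of 4 ratios above 1 and a median log2 ratio of 0.15, with C1qa and C1qc, chains of the recognition molecule C1q, both at 1.11, C1qb at 1.00 and properdin, Cfp, at 1.10. Interferon-stimulated genes had 5 of 5 above 1 and a median of 0.10, with Ifi27l2a at 1.16, Ifitm3 at 1.08 and Bst2 at 1.02. Lysosomal genes had 11 of 16 above 1 and a median of 0.05, with the legumain gene Lgmn at 1.22, Ctsl at 1.17, Scarb2 at 1.16 and Grn at 1.15. Uptake receptors had 6 of 11 above 1 and a median of 0.01, with Msr1 at 1.19, Fcgr4 at 1.08 and Fcer1g at 0.898. Kupffer transcription factors had 3 of 10 above 1 and a median of -0.03, with the nuclear receptor Rxra at 1.39, Cebpb at 1.13, Zeb2 at 0.944 and Id3 at 0.860. When marker-bearing cells were chosen on 1 part of each cell's UMIs and read on the other, Rxra was at 0.962. Over all UMIs at 50 CPM, complement genes had 5 of 7 above 1 and a median of 0.06. Interferon-stimulated genes had 9 of 13 and 0.03 there, and lysosomal genes 9 of 17 and 0.02.

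Oxidative phosphorylation genes had 3 of 13 above 1 and a median of -0.06, with Cox5b at 0.697, Ndufb9 at 0.721, Uqcrb at 0.825 and Atp5a1 at 1.14. Over all UMIs at 50 CPM, 6 of 15 were above 1, with a median of -0.02, and Cox5b was at 0.872. Glycolytic genes had 1 of 8 above 1 and a median of -0.17, with Tpi1 at 0.698, Gpi1 at 0.816, Gapdh at 0.864 and Ldha at 0.866. Over all UMIs at 50 CPM, 0 of 9 glycolytic genes were above 1, with a median of -0.07. For comparison, the median of all 3059 genes there was -0.01. With 200 CPM asked of the mean of both groups, 314 of all 718 genes were above 1 and 404 below. A single gene reached 200 CPM in each of 3 lists: Il18 of the inflammatory list at a ratio of 1.22, Hspa8 of the heat shock list at 0.991 and Tubb5 of the cell cycle list at 0.904. Lyz2, the macrophage lysozyme, stood at 4100 against 4954 CPM.

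Genes too low for the thinned comparison were read from all UMIs of the same cells, a choice made after the data were seen. Of 3059 genes with at least 50 CPM, 4 stood at least 2-fold higher in marker-bearing cells, which is 0.131%, and 2 stood 2-fold lower, 0.0654%. Besides Apoc1 these were Colec12, Pcolce2 and Dcn on the higher side and Atp6v0d2 and Syngr1 on the lower. Each of them except Apoc1 reached 50 CPM only in the group where it was higher, so the level itself has a part in both counts. Colec12, a scavenger receptor of the collectin family, was at 82.9 against 17.0 CPM, a ratio of 4.88 (3.84 to 6.19), with a UMI in 81 marker-bearing cells (21.9%) and in 4.53% of marker-free cells. Saline cells held 16.1 CPM of Colec12, so that this gene, like Marco, stood above both other groups. Pcolce2, an enhancer of procollagen processing, was at 95.7 against 30.8 CPM, a ratio of 3.11 (2.53 to 3.80), and at 200.1 CPM in saline.

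Dcn, the matrix proteoglycan decorin of stellate cells and fibroblasts, rested on 1 cell, which held 39 of its 84 UMIs, and without that cell its ratio of 2.45 was 1.32 (0.936 to 1.82). Atp6v0d2, a subunit of the lysosomal proton pump, was at 22.9 against 50.3 CPM, a ratio of 0.456 (0.312 to 0.645), and Syngr1, a synaptogyrin, at 35.7 against 71.7 CPM, a ratio of 0.498 (0.370 to 0.659). Both are on the list chosen on these libraries, as are Lrrc14b, at 51.2 against 95.6 CPM, and Spp1, which encodes osteopontin and had 3 thinned UMIs in marker-bearing cells, at 8.11 against 40.9 CPM. The prostacyclin synthase Ptgis was just short of 2-fold on the higher side, at 1.96 (1.60 to 2.38). Pmp22, a myelin protein gene, was at 1.81 (1.42 to 2.30). The complement genes C4b and C2 had 17 and 9 thinned UMIs in marker-bearing cells, for 45.9 against 11.6 CPM and 24.3 against 3.75 CPM. Over all UMIs, C4b was at 25.6 against 11.75 CPM, a ratio of 2.18 (1.47 to 3.16), and C2 at 35.0 against 2.47 CPM, a ratio of 14.2 (8.65 to 23.9), both under the 50 CPM asked of the genes counted here. These low genes were named after their values were seen.

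Some genes listed as markers of other cell types stood higher with the resident markers. The 9 endothelial markers summed to 408 CPM in marker-bearing and 307 CPM in marker-free cells, and to 939 in gated saline cells. Most of that difference was Cdh5, which encodes VE-cadherin, at 184 CPM (143 to 233) against 96.4 (85.5 to 108) and at 683 in saline. Endothelial barcodes of the Ter119 library held 560 CPM of Cdh5 (532 to 590), below the gated saline Kupffer cells. Cdh5 alone therefore does not tell endothelial from Kupffer cells here. Stab2 was at 62.2 against 62.0. Kdr, at 16.2 against 17.0, and Clec4g, at 13.5 against 16.4, were held low by the gate in both groups, so their likeness shows nothing. Outside the genes of the rule, the endothelial sum had a ratio of 1.38 (1.13 to 1.66). With cells limited to 0 UMIs of Kdr, Ptprb and Clec4g, the ratio of Apoc1 was 5.70. The 6 hepatocyte markers summed to 559 against 383 CPM, and to 2683 in saline. Albumin, Alb, at 392 against 267 CPM, made up most of that sum, which was seen in 39.2% of marker-bearing and 28.7% of marker-free thinned cells. Whether hepatocyte or endothelial RNA has a part in the differences was not tested.

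Monocyte markers were no higher with the resident markers, and peritoneal markers were too few to compare. The 8 monocyte markers summed to 103 CPM in marker-bearing and 119 in marker-free cells, with Ly6c2 and Ccr2 at 1 thinned UMI each and Vcan at 0. Gated saline cells held 619 CPM of this list, more than either Ter119 group, so its sum does not tell monocytes from Kupffer cells. Of 5 markers of peritoneal macrophages, which also express Timd4, the defining Gata6 and Prg4 were at 0. That list came to 8.11 against 6.47 CPM, with a UMI in 3 marker-bearing thinned cells, and to 27.5 CPM in saline. Neutrophil markers summed to 332 CPM in each group, but S100a8 and S100a9 were limited by the gate in both. Outside the genes of the rule, the neutrophil sum had a ratio of 1.42 (0.975 to 2.01). B cell markers summed to 8.11 against 25.9 CPM and T and NK cell markers to 5.41 against 6.47. Dendritic cell markers came to 18.9 against 19.1 and stellate cell markers to 51.4 against 35.8. Erythroid markers, nearly all hemoglobin, which the gate also limited, summed to 8541 against 8756 CPM.

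The marker-bearing cells were not uniform. The 193 cells with an Apoc1 UMI held 1694 CPM of Vsig4, 8870 of Marco, 332 of Timd4 and 161 of Colec12, whereas the 177 without one held 1028, 6548, 192 and 40, at medians of 3847 and 3910 UMIs. Among marker-free cells the 432 with an Apoc1 UMI stood at 889 CPM of Vsig4 and 5028 of Marco, and the 2503 without one at 708 and 4934. Cells with a Timd4 UMI, 175 in number, stood at 583 CPM of Apoc1, 1777 of Vsig4, 9246 of Marco and 160 of Colec12, against 215, 1015, 6426 and 51.3 in the 195 marker-bearing cells without Timd4. The 117 cells with C6 alone held 188 CPM of Apoc1, 1077 of Vsig4 and 17.1 of Colec12 (2.07 to 61.7). Most cells with Timd4 also held C6 or Cd163, and the 24 with Timd4 alone stood at 333 CPM of Apoc1 (144 to 657), 1167 of Vsig4 (775 to 1686) and 208 of Colec12 (67.6 to 486, from 5 UMIs). The intervals of Apoc1 and Vsig4 overlapped between the cells with C6 alone and with Timd4 alone, and those of Colec12 did not. Clec4f was at 2240 CPM with and 1764 without Timd4.

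The 49 marker-bearing cells without a thinned UMI of the list chosen on these libraries were set beside the other 321. They held 9082 CPM of Marco (8257 to 9966) against 7558 (7260 to 7864), and 469 CPM of Cd74 (298 to 704) against 816 (720 to 921), with intervals that did not overlap. Vsig4 was at 1776 against 1315 CPM, H2-Aa at 143 against 302, Hmox1 at 5551 against 6417 and Fth1 at 30020 against 31760, with intervals that overlapped, as did those of Apoc1, C6, Folr2, Clec4f and Colec12. Both sets of cells were above the saline level in Hmox1 and Fth1 and below it in Cd74 and H2-Aa.

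Marker-bearing cells were scattered over the Ter119 Kupffer cells rather than gathered. In a clustering of the 3822 gated cells without the genes of the rule, the largest cluster held 180 of them, 11.1% of its cells (9.59 to 12.7), and 2 others held 119 (11.4%, 9.55 to 13.5) and 68 (7.39%, 5.79 to 9.28). The fourth, with a median of 1304 UMIs, held 3 of 234 cells, or 1.28%. In the largest cluster Apoc1 was at 356 against 53.0 CPM, in the other two at 429 against 62.2 and 426 against 71.2, which are ratios of 6.71, 6.89 and 5.99. The cluster with 11.4% had the highest median mitochondrial share, 8.54%, and led in mitochondrial genes. The one with 7.39% led in genes such as Trem2, Gpnmb and Cd74. Vsig4 had ratios of 1.88, 2.17 and 1.505 in these 3 clusters, whereas Folr2 was at 1.00, 1.87 and 1.32.

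Few of the cells resembled saline Kupffer cells in their transcriptome outside the rule. Among the 30 nearest neighbours of each cell in both libraries, the mean share of saline cells was 1.504% for marker-bearing and 0.524% for marker-free cells. Most neighbours were saline for 4 marker-bearing cells (1.08%) and 12 marker-free cells (0.409%). Without these cells the ratios of Apoc1, Vsig4 and Clec4f were 5.95, 1.89 and 1.86. Since both mice were pooled before capture, cells assigned to the wrong mouse could be among them, which was not tested.

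In the saline library the same rule gave no such difference in Apoc1. Its 7771 cells with at least 2 marker UMIs held 2959 CPM and the 129 cells with none 3589 CPM, a ratio of 0.824 (0.752 to 0.906). Vsig4 had a ratio of 1.22 (1.09 to 1.36), Clec4f one of 1.27 (1.16 to 1.38), Marco one of 0.994 (0.820 to 1.22) and Colec12 only 3 UMIs in the cells without markers. Those 129 cells were shallow, with a median of 1305 UMIs against 6961, so that a sum of 0 there was in part a matter of depth. They also held more Alb, at 3209 against 1866 CPM, and more Fth1, at 8163 against 5603 CPM. Whether hepatocyte RNA has a part in the Apoc1 ratio of the saline library was not tested. The difference between the libraries in these ratios was not tested.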

How the data were processed

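Single-cell RNA was counted in 1 Ter119 and 1 saline library. The authors deposited raw UMI counts per gene and barcode. Per the file headers these came from Cell Ranger 6.0.2, whereas the submitters' processing notes name DESeq2 1.26.0, Seurat 3.2.3, Scanpy 1.7.0, Cell Ranger 4.0.0 and the build GRCm38.p6. The use of the hashtags is not stated in the sources at hand. Gene positions came from GENCODE vM21 by identifier.

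Barcodes with at least 1000 UMIs, 500 genes and at most 15% mitochondrial UMIs were gated as described. No doublet caller was run, and the neutrophil and endothelial limits of the gate were the only step against doublets. Cells were thinned at random to 1000 UMIs without replacement, hemoglobin included. Neutrophil barcodes had at least 5% S100a8 and S100a9, lymphoid barcodes at least 2 UMIs of 4 lymphoid genes and none of Clec4f or Vsig4, and endothelial barcodes at least 5 UMIs of Kdr, Ptprb and Clec4g. The hemoglobin limit of the gate was not asked of these barcodes. Levels have exact Poisson, shares exact Clopper-Pearson and ratios exact conditional binomial 95% intervals. They leave out PCR and variation between cells. With 1 library per treatment no test was run, and the comparison was checked on simulated counts. Clusters used 2000 variable genes, 20 principal components, 15 neighbours and leidenalg 0.10.2 at resolution 0.5 in scanpy 1.11.5, with scikit-learn 1.9.0 for neighbours across libraries. Tables and intervals were made with pandas 2.3.3, scipy 1.17.1, numpy 2.4.6 and python 3.11.15.

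The rule for named genes took the genes past 2-fold, the 4 genes of each list farthest from a ratio of 1, and 12 fixed Kupffer genes. It gave 69 genes, some of which are not reported here, and other genes were named to show their group's values. Of 315 listed symbols 311 matched, and none of the 4 genes of the RNA quality list did. The marker-bearing cells and the lists were chosen with earlier results of these data known.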

Additional observations from a re-analysis of the deposited data

How the results depend on the processing

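Apoc1 stood more than 2-fold higher in marker-bearing cells under all 16 alternatives that gave its ratio, which ran from 3.71 where cells were chosen on 1 part of their UMIs and read on the other to 8.25 with thinning to 2000 UMIs. Vsig4 ran from 1.39 to 2.16, Clec4f from 1.496 to 2.02 and Marco from 1.34 to 1.72. The main count of 1 gene 2-fold higher and 0 lower was 2 and 1 with a member sum of at least 3 and also with C6 left out of the sum (Cdh5 joined Apoc1, and the predicted gene Gm21188 was lower), and 2 higher with Cd163 left out or with genes of at least 100 CPM. It was 5 higher and 3 lower in the 106 marker-bearing cells with at most 5% mitochondrial UMIs, where each added gene rested on 13 to 35 UMIs, 4 and 2 without thinning at 50 CPM, and 3 and 4 at 1.5-fold, both chosen after seeing the data. It was 0 higher at 500 CPM, a level that Apoc1 does not reach. The share of marker-bearing cells, 9.68%, was 5.44% with a sum of at least 3, 2.49% and 6.00% after thinning to 1000 and 2000 UMIs, 7.82% without Timd4, 4.29% without C6, 7.72% without Cd163 and 7.25% with at most 5% mitochondrial UMIs. The median log2 ratio of all genes stayed between -0.06 and 0.01. No paired analysis was possible, because marker-bearing and marker-free cells come from the same 1 library and saline cells from 1 other. Depth limits which cells carry the markers, since 162 of the 370 cells sit at the threshold of 2 UMIs.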
